A study of Mus musculus with 7 samples.

Results

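Semaphorins, plexins and neuropilins form a major ligand and receptor system of axon guidance, and 31 genes of it were followed here in the prefrontal cortex of hDISC1AA/+ and WT mice. The members are the protein-coding genes whose symbol begins with Sema or Plxn and goes on with a digit or with a letter from A to D, together with Nrp1 and Nrp2. All 31 such genes of the annotation had an entry among the 43626 genes of the deposited table: 20 semaphorins, 9 plexins and 2 neuropilins. The rule goes by symbol and uses no measured value, but the family was picked for description with earlier results of these data known.

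Semaphorins are secreted or membrane-bound proteins that share an extracellular sema domain, and plexins are the receptors that carry their signal into the cell through a GTPase-activating domain. The secreted class 3 semaphorins mostly need a neuropilin as a binding partner beside a plexin of the A class, whereas membrane-bound classes 4 to 7 bind plexins directly. In cerebral cortex the system steers growing axons, places migrating neurons, shapes basal dendrites, prunes spines and adjusts synapses, and it also acts in blood vessels, oligodendrocytes and immune cells.

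The tissue came from male C57BL/6J mice aged 8 weeks, with 4 hDISC1AA/+ libraries and 3 WT libraries of whole prefrontal cortex. DISC1 is a scaffold protein of neurons, and the study concerns its phosphorylation, GSK3β and neuronal polarity; hDISC1AA/+ animals carry 1 altered allele, whose construction the labels do not describe. Separate mice are not stated for the libraries, so the p-values speak of the spread among these samples, part of which may be technical. Of the hDISC1AA/+ columns, 3 match a sample title (replicates 1, 3 and 4) and the other, whose number matches no title, is called the unnumbered library. Below, hDISC1AA/+ values stand in the order replicate 1, unnumbered, replicate 3, replicate 4, and WT values in the order replicate 1, 2, 3. A "normalized count" is the deposited value, which is the number of reads of a gene divided by 1 size factor per library. Differences are log2(normalized count + 1) of hDISC1AA/+ minus that of WT.

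The libraries held 33512557 to 36005116 gene-assigned reads, apart from WT replicate 1 with 63845254, and libraries of both groups stood apart. Myelinating oligodendrocyte markers (9 genes such as Mbp) summed to 27539 to 35144 normalized counts in hDISC1AA/+ and to 105379, 29293 and 34904 in WT replicates 1 to 3. Endothelial and mural markers (10 genes such as Cldn5) summed to 9944 to 12232 in hDISC1AA/+ and to 4198, 10095 and 12922 in WT, so WT replicate 1 was high in myelin and low in vessel transcripts. Of the oligodendrocyte markers 9 of 9 had a negative difference and of the vessel markers 10 of 10 a positive one. Astrocyte markers (8 genes) summed to 154874 to 189825 in hDISC1AA/+ and to 174612 to 263755 in WT, with WT replicate 1 again highest. Olfactory bulb markers (5 genes) summed to 836, 8772, 3634 and 6298 in hDISC1AA/+ and to 1490, 5493 and 3731 in WT, so the unnumbered library was highest and replicate 1 of each genotype lowest. No marker of these lists was at 0 in all libraries. The share of mitochondrial transcripts was 1.94% in hDISC1AA/+ replicate 1, while the remaining 6 libraries had 5.14% to 6.94%. Interneuron markers (7 genes) summed to 22798 in hDISC1AA/+ replicate 1 and to 28969 to 38469 in the others. Of these genes, Gad1 (9023), Gad2 (4641) and Vip (1169) were lowest in hDISC1AA/+ replicate 1. Pvalb (849) and Lhx6 (707) were instead highest in that library, and Slc32a1 and Sst were neither. Choroid plexus markers (5 genes) summed to 984 there, of which Ttr made 758, and to 157 to 244 in the others. The sums of meningeal and of blood markers were also highest in that library (10192 and 18093, against at most 9458 and 17007). Among the meningeal genes only Col1a1 (2314) and Col1a2 (2450) were highest there, and the blood gene Hba-a2 (47.6) was lowest there. By mean log2 deviation from the other libraries, hDISC1AA/+ replicate 3 was higher for meningeal markers (0.59, against 0.54). WT replicate 3 was higher for blood markers (1.46, against 0.80). Projection neuron markers were present in every library (10 of 10 tested, summed to 223318 to 298747 in hDISC1AA/+ and 246637 to 285653 in WT). Disc1 averaged 76.7 ± 11.2 normalized counts in hDISC1AA/+ and 76.0 ± 31.2 in WT (SD, n = 4 and 3; limma adjusted p = 0.998).

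The prefrontal cortex held transcripts of all 31 members, and their levels spanned a wide range once divided by length. All 31 passed the filter on low values (at least 10 normalized counts in at least 3 libraries). Per kilobase of merged exons, Sema7a was highest, with 1579.9 ± 169.5 normalized counts per kilobase in hDISC1AA/+ and 1699 ± 111 in WT, followed by Sema6b with 1306 ± 202 normalized counts per kilobase in hDISC1AA/+ and 1303 ± 133 in WT. Sema7a is a GPI-anchored semaphorin that binds plexin C1 and β1 integrin, and Sema6b is a transmembrane ligand of class A plexins. Among the receptors Plxnd1 led with 698 ± 58.1 normalized counts per kilobase in hDISC1AA/+ and 689 ± 92.3 in WT, then Plxna1 with 546 ± 52.4 normalized counts per kilobase in hDISC1AA/+ and 549.9 ± 35.4 in WT. The lowest members were all secreted: Sema3b, with 20.7 ± 5.14 normalized counts per kilobase in hDISC1AA/+ and 22.0 ± 1.99 in WT, Sema3f and Sema3g. Every secreted class 3 gene lay below Sema6d, the member with rank 13 of 31, and the highest of them, Sema3c, had rank 14. These orders compare per-kilobase levels and depend on the annotated exon length. Of the members 22 of 31 shared no window of 50 bases with transcripts of another gene, and the largest share was 2.58% of the windows of Sema3a.

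**Figure D1:**
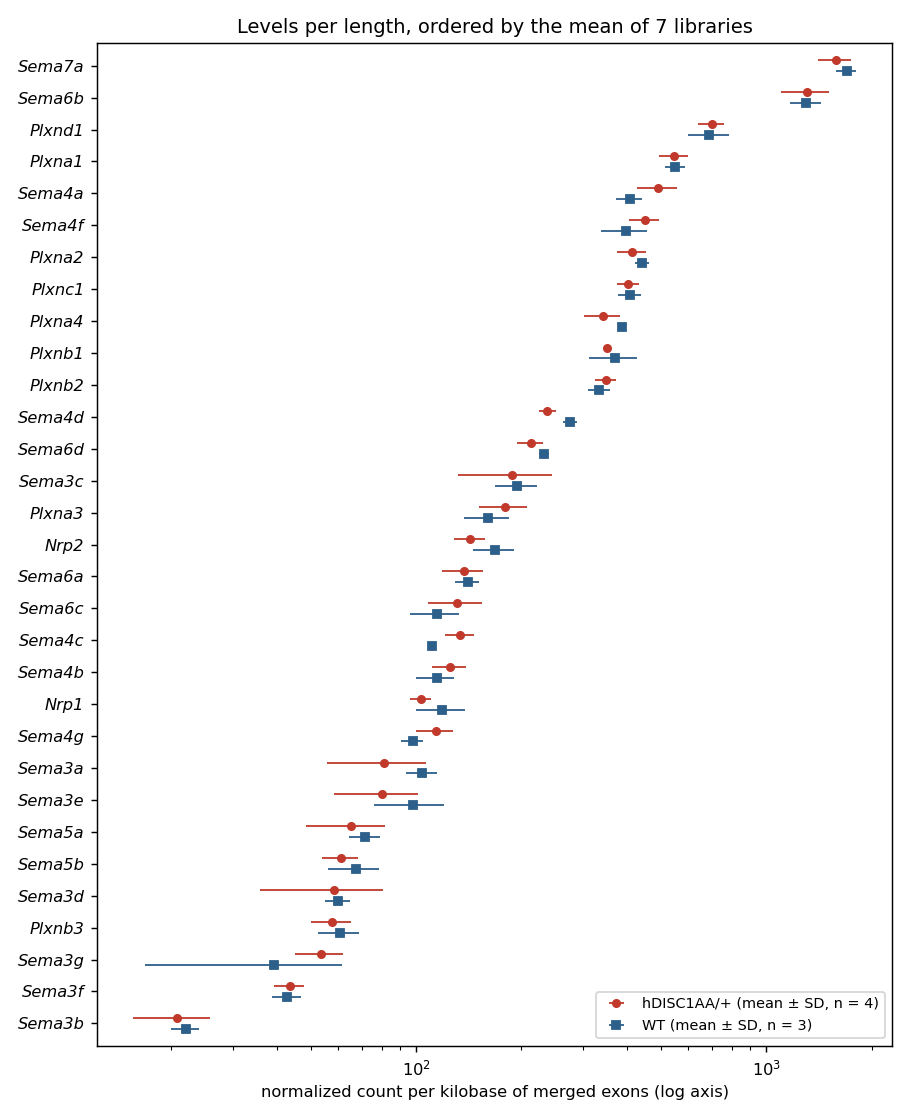
Normalized counts per kilobase of merged exons (log axis) of the 31 members, ordered by the mean of all 7 libraries; circles are hDISC1AA/+ means and squares WT means, with bars of 1 SD (n = 4 and 3). Sema7a and Sema6b lie on top in both genotypes and the secreted class 3 genes fill most of the lower rows.

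Between the genotypes, no member passed the test. Limma's adjusted p was 0.974 to 0.998 for the 31 members, and 0 of 17670 genes tested passed at 0.05 (0% of all genes). The unadjusted p was under 0.05 for 2 of 31 members, Sema4c and Sema4d (6.45%), against 2.44% of all genes tested. The difference was positive for Sema4c, as for 1.14% of all genes, and negative for Sema4d, as for 1.3%. By edgeR on the recovered reads 0 members passed and 2 had an unadjusted p under 0.05, Sema4c (0.0379) and Sema4a (0.0498), while Sema4d had 0.0540. The share over all genes edgeR tested was 2.58%. By DESeq2 0 passed and 1 had an unadjusted p under 0.05, Sema4c (0.0426), while Sema4d had 0.0504. The share over all genes DESeq2 tested was 2.13%. Without the unnumbered hDISC1AA/+ library or without hDISC1AA/+ replicate 3, limma gave 0 members with an unadjusted p under 0.05, and without WT replicate 3 it gave 1. The shares over all genes tested were 1.25%, 2.23% and 2.93%, in the same order. The normalized counts of the genotypes did not overlap for 3 of 31 members, Sema4c, Sema4d and Plxna4 (9.68%), against 5.04% of all genes. Of these Sema4c lay higher in hDISC1AA/+ (2.2% of all genes) and Sema4d and Plxna4 lower (2.84% of all genes). Of the members 11 had a positive and 20 a negative difference, with a median of -0.07; over all genes tested 52.2% were negative and the median was -0.01. The sign of Sema6b, which lay next to 0, turned positive with TMM scaling. The 95% confidence interval lay within 1.5-fold in either direction for 24 of 31 members, against 54% of all genes, and within 2-fold for 29 of 31, against 77.4%. The 2 members whose interval reached beyond 2-fold were Sema3a and Sema3g.

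**Figure D2:**
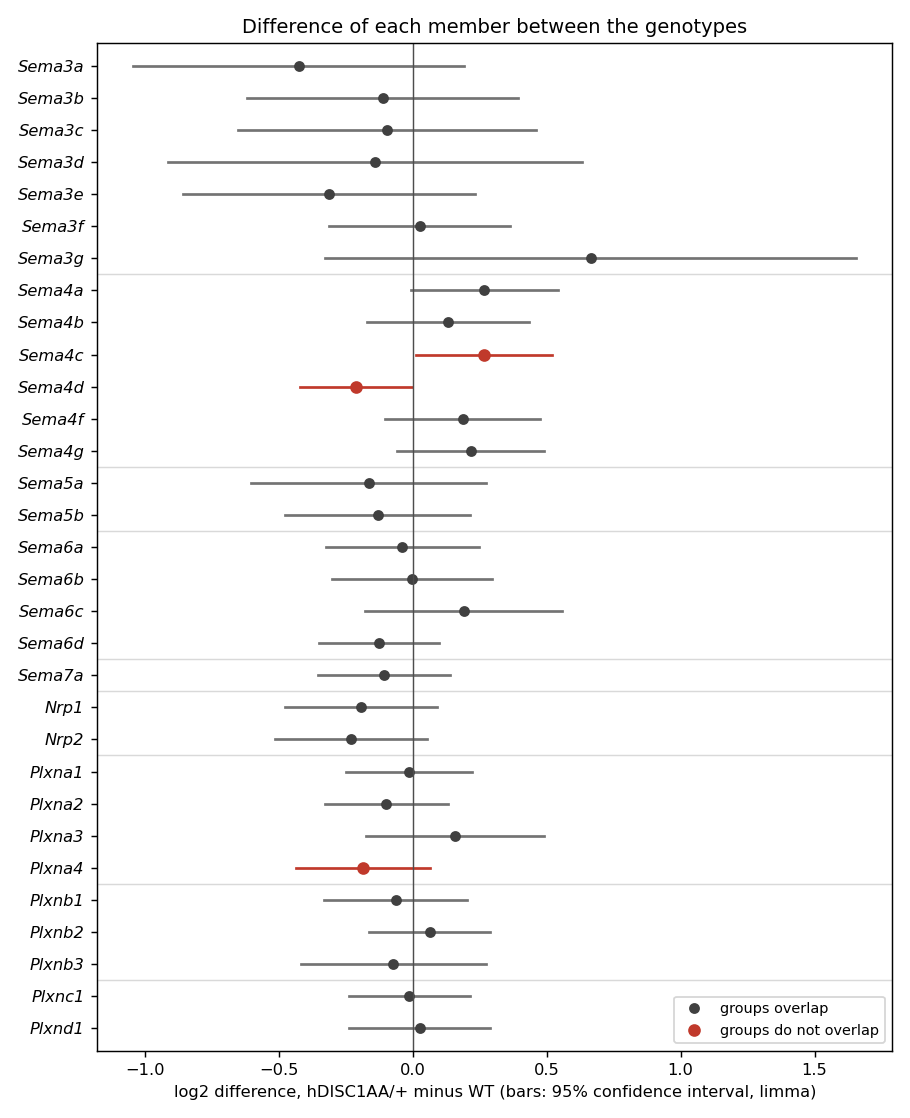
Log2 difference of hDISC1AA/+ minus WT for each member with its 95% confidence interval from limma, by class from Sema3 (top) to plexins C and D (bottom); red marks the 3 members whose groups do not overlap. The intervals of plexins and class 4 semaphorins are narrow, those of most class 3 semaphorins wide, and only Sema4c and Sema4d have an interval that leaves out 0.

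Class 4 semaphorins are transmembrane ligands, mainly of class B plexins, that can also be shed from the cell surface. In this class 5 of 6 members had a positive difference and Sema4d a negative one, with a median of 0.20, and none passed the test (0 of 6). Sema4c (ENSMUSG00000026121, chromosome 1, 36548639 to 36558349 on the minus strand of GRCm38), a ligand of plexin B2, had 598, 580.3, 699 and 578 normalized counts in hDISC1AA/+, against 513, 509.6 and 505 in WT. Every hDISC1AA/+ library lay above every WT library, the WT values lay close together, and hDISC1AA/+ replicate 3 was the highest. The mean was 614 ± 57.3 normalized counts in hDISC1AA/+ and 509 ± 4.16 in WT (SD, n = 4 and 3; log2 difference 0.26, 95% CI 0.01 to 0.52; limma unadjusted p = 0.0429, adjusted p = 0.974). An exact permutation test over the 35 divisions of 7 libraries into 4 and 3 gave a two-sided p of 0.0286, the smallest it can give. The opposite-strand gene D430040D24Rik shares 7.27% of the exon bases of Sema4c, and with no stated strand setting its reads cannot be told apart from those of Sema4c; it had 30.3 to 56.6 normalized counts in hDISC1AA/+ and 28.9 to 40.3 in WT.

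Sema4d (ENSMUSG00000021451, chromosome 13, 51685529 to 51793747 on the minus strand), a ligand of plexin B1 that oligodendrocytes and some neurons make and that promotes formation of inhibitory synapses, had a difference of the opposite sign. It had 1874, 1697, 1785 and 1932 normalized counts in hDISC1AA/+, against 2004, 2133 and 2198 in WT, so that every hDISC1AA/+ library lay below every WT library. The mean was 1822 ± 103 normalized counts in hDISC1AA/+ and 2112 ± 98.6 in WT (SD, n = 4 and 3; log2 difference -0.21, 95% CI -0.42 to -0.0037; limma unadjusted p = 0.0469, adjusted p = 0.974; exact permutation p = 0.0286). The difference was -0.25 without WT replicate 1, and the myelin-rich WT replicate 1 had the lowest Sema4d of the WT libraries. The part of cell make-up in the Sema4d values was not tested. In bulk tissue fewer cells of a type and less RNA per cell cannot be told apart. The differences of Sema4c and Sema4d kept their sign in all 18 alternative settings, from 0.20 to 0.30 for Sema4c and from -0.27 to -0.18 for Sema4d. After correction of each library for GC content and transcript length, Sema4c had 0.22 (limma unadjusted p = 0.117, adjusted p = 0.928). With the same correction Sema4d had -0.25 (limma unadjusted p = 0.0210, adjusted p = 0.928).

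The other class 4 members overlapped between the genotypes. Sema4a, which binds class B plexins and plexin D1 and also acts on T cells, had 2594, 2537, 3159 and 2352 normalized counts in hDISC1AA/+, against 2057, 2418 and 2134 in WT (log2 difference 0.27, 95% CI -0.01 to 0.54). Only hDISC1AA/+ replicate 4 fell within the WT range, and it lay below WT replicate 2. Sema4g had 916, 1151, 883 and 995 normalized counts in hDISC1AA/+, against 785, 850.1 and 904 in WT (log2 difference 0.21). For Sema4f, a brain semaphorin found at synapses, the values were 2724, 2289.9, 2249.7 and 2246 normalized counts in hDISC1AA/+, against 1765, 2141 and 2388 in WT (log2 difference 0.19). Sema4b had a mean of 707 ± 78.5 normalized counts in hDISC1AA/+ and 646 ± 80.1 in WT (log2 difference 0.13). WT replicate 1 was the lowest library for Sema4a, Sema4b, Sema4f and Sema4g; without it the differences were 0.22, 0.02, 0.07 and 0.16, in the same order. The part of that library's cell make-up in these values was not tested. With all libraries and the GC and length correction, the differences were 0.21 for Sema4a, 0.09 for Sema4b, 0.14 for Sema4f and 0.18 for Sema4g.

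The genomic windows before the starts of Sema4c and Sema4d are shown because these 2 members of a class had differences of opposite sign. They hold the 250 bases upstream of a start from RefSeq on GRCm38.p6, 5′ to 3′ on the minus strand on which both genes lie, and for each gene the outermost of the listed starts was taken (2 for Sema4c and 3 for Sema4d). Capitals mark matches to the GC box GGGCGG on either strand, a binding sequence of Sp1 family factors.
Sema4c (chr1:36558382-36558631): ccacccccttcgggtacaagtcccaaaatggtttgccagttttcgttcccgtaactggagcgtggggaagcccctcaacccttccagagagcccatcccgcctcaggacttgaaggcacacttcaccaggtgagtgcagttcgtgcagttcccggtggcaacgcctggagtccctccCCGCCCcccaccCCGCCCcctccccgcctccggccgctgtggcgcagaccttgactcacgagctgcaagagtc
Sema4d (chr13:51756684-51756933): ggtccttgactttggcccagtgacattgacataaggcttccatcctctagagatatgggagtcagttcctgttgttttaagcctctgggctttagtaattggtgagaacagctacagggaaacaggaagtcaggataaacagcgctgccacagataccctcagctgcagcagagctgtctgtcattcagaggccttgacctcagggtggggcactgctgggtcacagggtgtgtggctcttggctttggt
The Sema4c window had 64.4% G and C, 15 CG dinucleotides and 2 GC boxes, and the Sema4d window 52% G and C, 1 CG dinucleotide and no GC box. The count depends on the start taken for Sema4d: of its windows not printed, chr13:51739447-51739696 had 1 GC box and chr13:51748811-51749060 had 0. The Sema4c window not printed had 2. Among 32851 such windows of all genes 32.7% held a GC box, and of the 37 windows of 26 members, 27 did. The member windows were also richer in G and C (median 64%, against 52.4% over all windows). Their median number of CG dinucleotides was 13, against 6 over all windows. TATAAA, the TATA box, was in none of the 37 member windows and in 12.4% of all windows. The Sema4c window lies upstream of the annotated gene, and the Sema4d window inside the span of the annotated Sema4d gene. Gene-level counts do not say which start was used.

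Secreted class 3 semaphorins act over a distance as repellents or attractants. Here 5 of 7 had a negative difference and 2 a positive one (median -0.11), none passed the test, and the groups of all 7 overlapped. Sema3a, the founding repellent of cortical axons, which also attracts apical dendrites, had 602, 1345, 1305 and 1248 normalized counts in hDISC1AA/+, against 1605, 1406 and 1326 in WT. The level in hDISC1AA/+ replicate 1 was far below that of all other libraries, and the remaining hDISC1AA/+ libraries lay at the lower end of the WT range or just under it. The difference was -0.43 (95% CI -1.04 to 0.19) with all libraries and -0.15 without hDISC1AA/+ replicate 1.

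The same library was the lowest for Sema3c, Sema3d, Sema3e and, by a small gap, Sema3f. Sema3d had 225, 549, 673 and 557 normalized counts in hDISC1AA/+, against 526, 548 and 466 in WT. Sema3c, with the highest per-kilobase level of the secreted members, had 803, 1500.0, 1313 and 1762 normalized counts in hDISC1AA/+, against 1250.3, 1603 and 1318 in WT. For Sema3e, a ligand that binds plexin D1 without a neuropilin, the values were 509, 896, 638 and 919.7 normalized counts in hDISC1AA/+, against 1058, 997 and 675 in WT. Without hDISC1AA/+ replicate 1 the differences turned to 0.20 for Sema3d and 0.13 for Sema3c and became -0.15 for Sema3e, against -0.14, -0.10 and -0.31 with it. Sema3a, Sema3c, Sema3d and Sema3e lie near each other on chromosome 5 (Sema3f is on chromosome 9), between position 12383385 (start of Sema3d) and position 17730268 (end of Sema3c) of GRCm38.

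**Figure D3:**
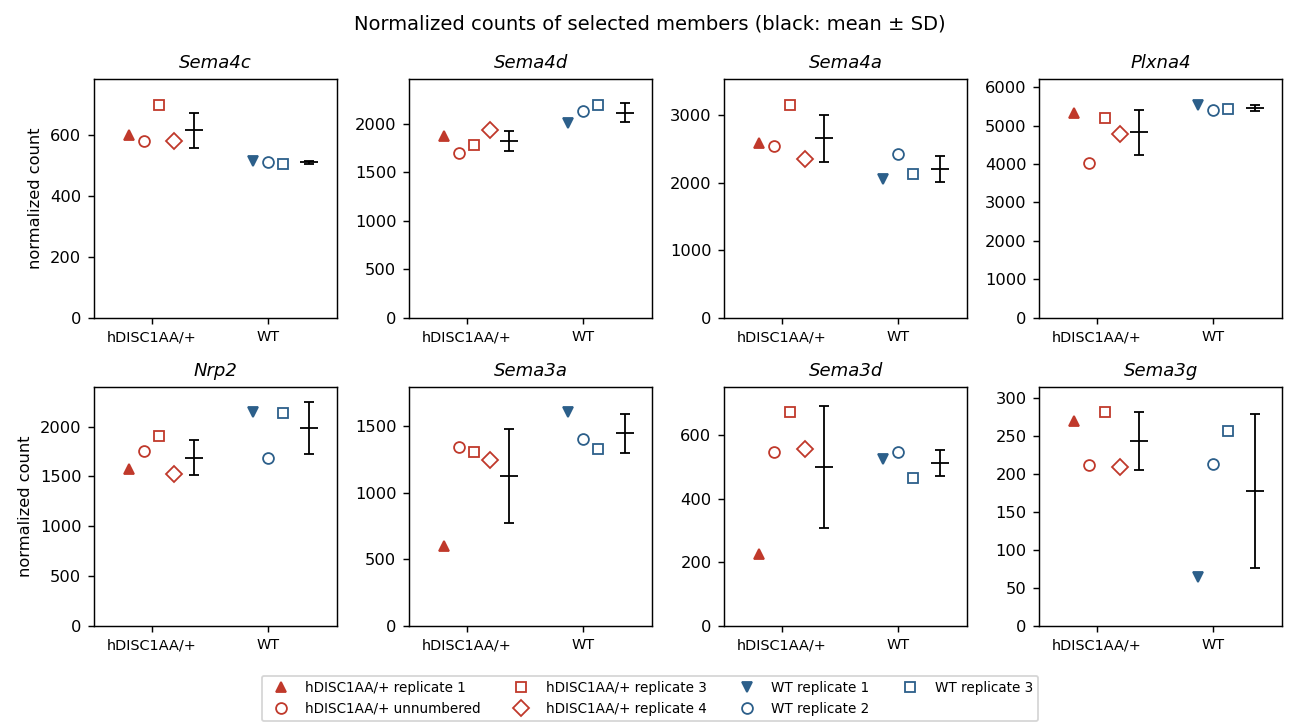
Normalized counts of 8 members by library, hDISC1AA/+ left and WT right in each panel, with the mean and 1 SD in black; filled symbols are replicate 1 of each genotype. Sema4c and Sema4d separate the genotypes in opposite directions, hDISC1AA/+ replicate 1 is lowest for Sema3a and Sema3d, and WT replicate 1 is lowest for Sema3g.

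In hDISC1AA/+ replicate 1 the deviation of a gene went with the GC content of its transcript. The 6 members whose longest transcript had under 47% GC (a bound chosen after seeing the values) were Sema3d, Sema3a, Nrp1, Sema3e, Sema3c and Sema5a, and hDISC1AA/+ replicate 1 was the lowest library for 5 of them. Their median deviation in that library from the mean of the other 6 was -0.79, against 0.08 for the other 25 members. Sema3d, the member with the lowest GC content (39.2%), deviated by -1.28, and Sema6b, with the highest (63.5%), by 0.36. Across the 31 members Spearman's rank correlation of GC content with this deviation was 0.73, and across 17543 genes tested it was 0.61. The same correlation was -0.65 (all genes -0.39) in WT replicate 2 and -0.40 (all genes -0.35) in hDISC1AA/+ replicate 4. In the remaining libraries it lay between -0.28 and 0.0016 across the members. Each deviation is taken from the mean of the other libraries, so the libraries are not independent here. These are correlations across genes of 1 library at a time, and genes are not independent replicates. Among all members hDISC1AA/+ replicate 1 was the lowest library for 9 of 31 (29.0%), against 24.8% of all genes tested, and WT replicate 1 was the lowest for 8 (24.8% of all genes) and the highest for 7 (28.2%). After correction of each library for GC content and transcript length, the differences were -0.25 for Sema3a, 0.02 for Sema3c, 0.09 for Sema3d, -0.16 for Sema3e, -0.07 for Sema5a and -0.10 for Nrp1. Before correction Nrp1 had -0.19. The part of the tissue make-up of hDISC1AA/+ replicate 1 in these values was not tested.

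**Figure D4:**
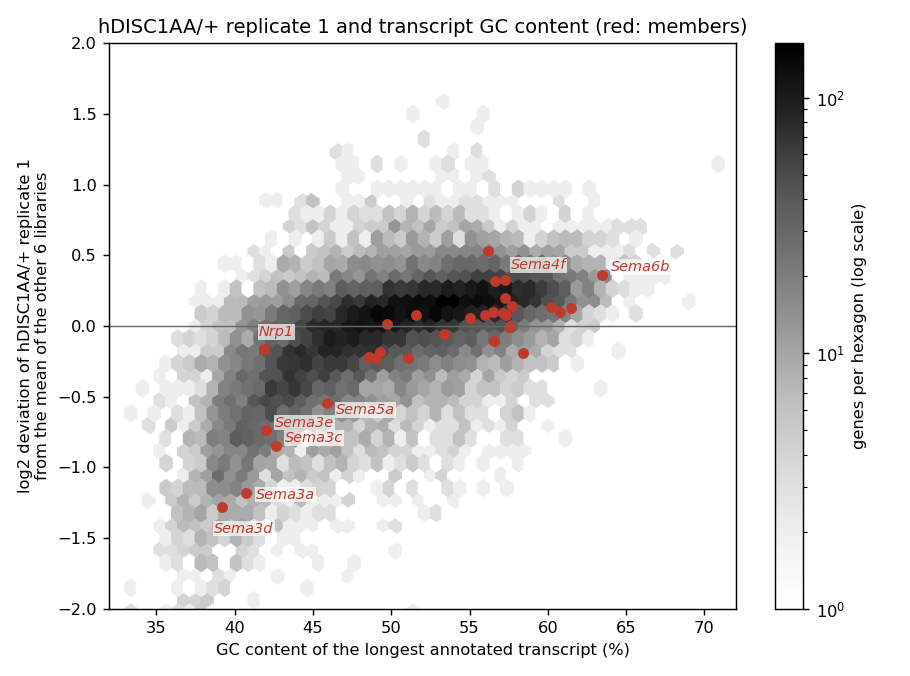
Deviation of hDISC1AA/+ replicate 1 from the mean of the other 6 libraries (log2) against the GC content of the longest annotated transcript, for the 31 members (red points) over all genes tested with a GC value (grey hexagons, 259 of 17543 genes outside the axes). Sema3a, Sema3c, Sema3d, Sema3e and Sema5a sit at the lower left and Sema6b at the upper right.

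Sema3g, a secreted semaphorin made mainly by endothelial cells, had its widest deviation in a WT library. It had 271, 212, 282 and 209 normalized counts in hDISC1AA/+, against 63.5, 213 and 257 in WT. WT replicate 1 stood far below all others, and the difference was 0.66 with it (95% CI -0.33 to 1.66) and 0.04 without it. The endothelial and mural markers were low in the same library, with a mean deviation of -1.56 over 10 genes from the other 6 libraries; the part of vessel content in the Sema3g value was not tested. Sema3f, the ligand of neuropilin 2 that limits spines on cortical dendrites, has a transcript of 58.4% GC; it averaged 227 ± 22.7 normalized counts in hDISC1AA/+ and 223 ± 20.9 in WT (log2 difference 0.03, 95% CI -0.31 to 0.36). Sema3b averaged 99.0 ± 24.5 normalized counts in hDISC1AA/+ and 105 ± 9.53 in WT (log2 difference -0.11).

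Neuropilins are the co-receptors that bind class 3 semaphorins, and both had negative differences. Nrp2, the partner of Sema3f, had 1579, 1751, 1904 and 1525 normalized counts in hDISC1AA/+, against 2145, 1687 and 2135 in WT (log2 difference -0.23, 95% CI -0.52 to 0.05). WT replicate 2 lay within the hDISC1AA/+ range, and the other WT libraries above it. Nrp1, the partner of Sema3a and of VEGF, had 969, 997, 1111 and 962 normalized counts in hDISC1AA/+, against 1011, 1368 and 1105 in WT (log2 difference -0.19, 95% CI -0.48 to 0.09). Here WT replicate 2 alone lay clearly above the rest, and without it the difference was -0.07. With all libraries and the GC and length correction the differences were -0.10 for Nrp1 and -0.22 for Nrp2. For both the confidence interval includes 0 and lies within 1.5-fold. Per kilobase Nrp2 had 143 ± 14.6 in hDISC1AA/+ and 168 ± 22.1 in WT, and Nrp1 103 ± 7.09 in hDISC1AA/+ and 119 ± 18.9 in WT (SD, n = 4 and 3).

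Class A plexins signal for class 3 semaphorins with neuropilins and bind class 6 semaphorins directly. In this class 3 of 4 members had a negative difference (median -0.06), and none passed the test. Plxna4, the receptor through which Sema3a acts on basal dendrites of cortical neurons, had 5318, 4026, 5188 and 4769 normalized counts in hDISC1AA/+, against 5546, 5404 and 5434 in WT. Every hDISC1AA/+ library lay below every WT library, and the unnumbered hDISC1AA/+ library was the lowest of all. The mean was 4825 ± 582 normalized counts in hDISC1AA/+ and 5461 ± 74.9 in WT (SD, n = 4 and 3; log2 difference -0.19, 95% CI -0.44 to 0.07; exact permutation p = 0.143). Without the unnumbered library the difference was -0.10. The antisense gene Plxna4os3 overlaps 0.78% of its exon bases and was at 0 in the libraries.

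Plxna2, with the highest normalized counts of the family before division by length, had 7379, 6239, 7883 and 6963 normalized counts in hDISC1AA/+, against 7238, 7593 and 7975 in WT (log2 difference -0.10). It binds Sema6a in the developing hippocampus and cerebellum, and its groups overlapped. Plxna1, a receptor of Sema6d, had 5565, 4416, 4941 and 4834 normalized counts in hDISC1AA/+, against 4610.2, 5197 and 5128 in WT (log2 difference -0.01, 95% CI -0.25 to 0.22); the antisense gene Gm26811 shares 10.7% of its exon bases and had 37.9 to 57.1 normalized counts in hDISC1AA/+ and 24.4 to 44.7 in WT. Plxna3, which acts with neuropilin 2 in pruning, had 1384, 1733, 1268 and 1268 normalized counts in hDISC1AA/+, against 1071, 1436 and 1287 in WT (log2 difference 0.16). The unnumbered hDISC1AA/+ library was the lowest of 7 for Plxna1, Plxna2 and Plxna4 and the highest for Plxna3. Among all members it was the lowest for 7 of 31, against 12.5% of all genes tested. That library also had the highest olfactory bulb markers (mean deviation 1.88 over 5 genes); their part in these values was not tested.

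The remaining plexins had small differences with narrow intervals. Plxnb1, the receptor of Sema4d, had 3435, 3404, 3354 and 3262 normalized counts in hDISC1AA/+, against 3774, 2912 and 3965 in WT (log2 difference -0.07, 95% CI -0.33 to 0.20). The 4 hDISC1AA/+ libraries lay inside the range of the 3 WT libraries. Plxnb2, the receptor of Sema4c, had 2763, 2771, 2818 and 2417 normalized counts in hDISC1AA/+, against 2396, 2562 and 2777 in WT (log2 difference 0.06, 95% CI -0.16 to 0.29). Plxnb1 and Plxnb2 thus had overlapping groups, unlike their ligands Sema4d and Sema4c. Their intervals lay within 1.5-fold, as those of Sema4c and Sema4d also did. Plxnb3, a plexin of the oligodendrocyte lineage, had 398, 429.8, 324 and 343 normalized counts in hDISC1AA/+, against 448, 342 and 389 in WT (log2 difference -0.07). The groups overlapped, the myelin-rich WT replicate 1 was the highest library, and without it the difference was 0.03; the part of myelin content in it was not tested.

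Plxnd1, the receptor of Sema3e in vessels and in cortical and striatal neurons, had 5350.0, 4464, 5305 and 5271 normalized counts in hDISC1AA/+, against 4759.7, 4528 and 5793 in WT (log2 difference 0.02, 95% CI -0.24 to 0.29). WT replicate 1, low in vessel markers and in Sema3g, lay within the range of the other libraries for Plxnd1. Plxnc1, the receptor of Sema7a, had 3028, 3386, 3503 and 3585 normalized counts in hDISC1AA/+, against 3242, 3706 and 3279 in WT (log2 difference -0.01, 95% CI -0.24 to 0.21). All 9 plexins had an interval within 1.5-fold.

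Among the membrane-bound semaphorins of classes 5 to 7, 6 of 7 had a negative difference (5 of 7 with TMM scaling, where Sema6b turned positive) and none passed the test. Sema7a had 5825, 4474, 5344 and 5198 normalized counts in hDISC1AA/+, against 5958, 5229 and 5618 in WT (log2 difference -0.11, 95% CI -0.36 to 0.14), with the unnumbered library lowest and the groups overlapping. Sema6d had 2034, 2145, 2336 and 2469 normalized counts in hDISC1AA/+, against 2419, 2382 and 2539 in WT (log2 difference -0.13); hDISC1AA/+ replicate 4 lay within the WT range. Sema6c, with the class's positive difference, had 785, 969, 688 and 669.7 normalized counts in hDISC1AA/+, against 581, 797 and 663 in WT (log2 difference 0.19). The groups overlapped, and WT replicate 1 was the lowest of the 7 libraries. Sema6b averaged 5181 ± 803 normalized counts in hDISC1AA/+ and 5169.7 ± 527 in WT (log2 difference -0.0036, 95% CI -0.30 to 0.29). Sema6a, which repels migrating granule cells and marks oligodendrocyte lineage cells, averaged 1204 ± 163 normalized counts in hDISC1AA/+ and 1233 ± 97.5 in WT (log2 difference -0.04). Both means thus lay close together between the genotypes, within their SDs. Sema5a, a semaphorin with thrombospondin repeats that limits synapses of hippocampal granule cells, had 902, 1506, 1003 and 1459.8 normalized counts in hDISC1AA/+, against 1397, 1432 and 1180.2 in WT (log2 difference -0.16). Sema5b, of the same structure, had 485, 467, 402 and 377 normalized counts in hDISC1AA/+, against 566, 418 and 444 in WT (log2 difference -0.13). In both the groups overlapped, and hDISC1AA/+ replicate 1 was lowest for Sema5a but not for Sema5b.

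**Figure D5:**
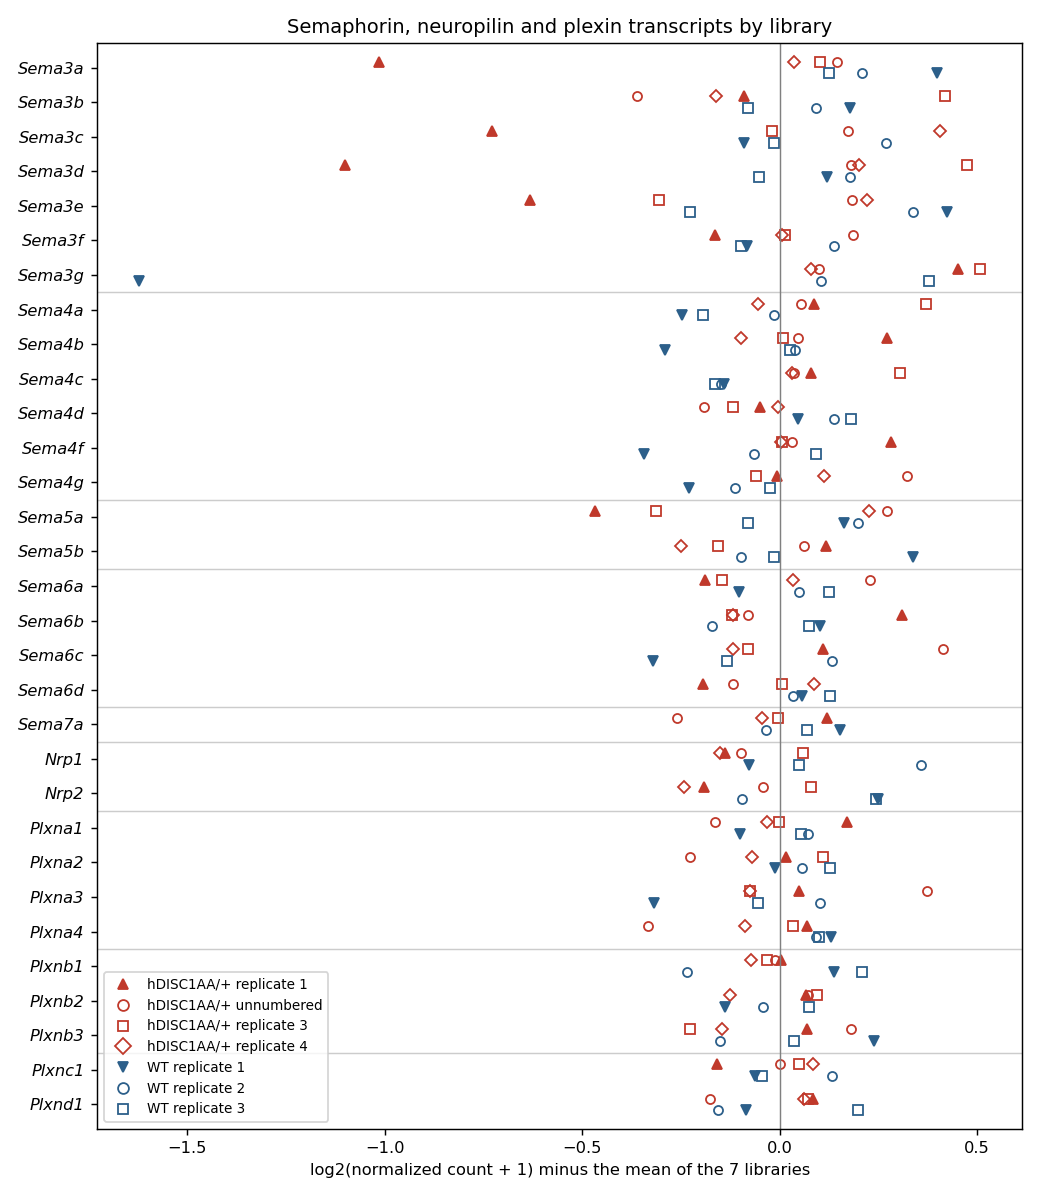
Log2(normalized count + 1) of each member minus its mean over the 7 libraries, with hDISC1AA/+ in red above WT in blue in every row and replicate 1 of each genotype filled. The widest rows are those of Sema3g, where WT replicate 1 lies far left, and of Sema3a, Sema3c, Sema3d and Sema3e, where hDISC1AA/+ replicate 1 does.

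Downstream of the receptors, genes for effectors inside the cell did not pass the test either. Of 34 listed effectors (CRMP and MICAL proteins, regulators of small GTPases and kinases) all 34 were tested, 0 passed, 14 had a positive and 20 a negative difference, and the median was -0.04. The 3 with the smallest p were Farp2, Gsk3b and Arhgef12. Farp2, a Rac exchange factor that is released from plexin A1 when Sema3a binds, averaged 257 ± 25.5 normalized counts in hDISC1AA/+ and 319 ± 38.2 in WT (log2 difference -0.31), and its groups did not overlap; 2 of the 34 effectors had groups without overlap, against 5.04% of all genes. Arhgef12, the LARG exchange factor that binds class B plexins, averaged 11038 ± 689 normalized counts in hDISC1AA/+ and 12249 ± 289 in WT (log2 difference -0.15), again without overlap. Gsk3b, the kinase in the study's title and a target of semaphorin signalling, averaged 8721 ± 1126 normalized counts in hDISC1AA/+ and 10207 ± 593 in WT (log2 difference -0.23; limma adjusted p = 0.974).

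Of 19 listed co-receptors and other binding partners 18 were tested and Timd2, a receptor of Sema4a on T cells, was at or near 0 in every library. None passed, 12 had a positive and 6 a negative difference, and the median was 0.04. Erbb2, the receptor tyrosine kinase that associates with class B plexins and responds to Sema4d, had 108, 109, 191 and 120 normalized counts in hDISC1AA/+, against 71.9, 81.8 and 90.4 in WT, with no overlap (log2 difference 0.66, 95% CI 0.11 to 1.20; limma unadjusted p = 0.0236, adjusted p = 0.974). It was the 1 gene of 18 without overlap and the 1 gene of 18 with an unadjusted p under 0.05, against 5.04% and 2.44% of all genes tested. Chl1, an adhesion protein that couples neuropilin 1 to the cytoskeleton, averaged 7849 ± 1947 normalized counts in hDISC1AA/+ and 9972 ± 872 in WT (log2 difference -0.38). Its values were 5206, 7566, 9182 and 9441 normalized counts in hDISC1AA/+, against 10917, 9800 and 9200 in WT. The groups overlapped, and hDISC1AA/+ replicate 1 was far below the other libraries. Cntn2 averaged 3473 ± 242 normalized counts in hDISC1AA/+ and 3905 ± 274 in WT (log2 difference -0.17). The VEGF receptor genes Kdr, Flt1 and Flt4 were low in WT replicate 1 (132, 586 and 25.7 normalized counts), as Sema3g was, against 470 to 757, 2472 to 3575 and 136 to 148 in the other 6 libraries.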

How the data were processed

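Total RNA of frozen prefrontal cortex was made into libraries with a NEBNext Ultra kit, per the labels' protocols. Per the submitters' processing notes, the genome build was mm10 and the tools included DESeq2 1.26.0, HTSeq 0.6.1, HISAT2 2.1.0 and Trimmomatic 0.39, whose roles and order are not recorded there. Not given in the sources used here are the strand setting, the treatment of multiply matching reads and the annotation version.

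The authors deposited a signal per gene and library that is proportional to reads. Within each library 100% of values were whole multiples of 1 step (tolerance 0.01 reads), so reads could be recovered. Of 43626 genes read, 42545 matched GENCODE M21 (GRCm38), which gave symbols, lengths and GC content. A further 3 genes whose lines were split in the file were left out.

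The 17670 genes that reached a value of 10 in at least 3 libraries entered the test with limma 3.58.1 (R 4.3.3, trend and robust) on log2(value + 1), which understates changes of low genes, hDISC1AA/+ against WT, with Benjamini-Hochberg adjustment at 0.05 over all genes. An exact two-sided permutation test over 35 divisions of the libraries (smallest p 0.0286) was run per member. edgeR 4.0.16 and DESeq2 1.42.0 on recovered reads were alternatives, beside other pseudocounts, filters, scalings, array weights, a GC and length correction and left-out libraries. The steps were tested on simulated data. There 9 of 67 changes of 1.5-fold (13.4%), 44 of 67 of 2-fold (65.7%) and 60 of 66 of 4-fold (90.9%) passed the threshold. Genes were simulated independently, without the library-wide shifts described above, and genes with the lowest means were given no change. Strong changes among them also ease the adjusted threshold. These shares may therefore be higher than in the real libraries. Most changes of 1.5-fold would thus be missed.

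The members and lists were chosen with earlier results of these data known. Given with all 7 values were, per class, the member highest per kilobase, up to 3 with the smallest p and any whose groups did not overlap. Other members and partner genes given so were chosen after their values were seen. From each list outside the family up to 3 genes with the smallest p were named. Per-kilobase levels use merged exon length. For 1 gene of the oligodendrocyte list no result is reported here, and it was left out of the sums.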

Additional observations from a re-analysis of the deposited data

Results flagged for a closer look

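Among the 4 hDISC1AA/+ libraries, 1 library lay far from the other 3 for 6 of 31 members, by the gap to its neighbour as a share of the whole range that Dixon's test calls at the 95% level. That is 19.4% of the members, against 7.98% of all 17670 genes tested and about 1 in 20 by chance; whole libraries stood apart over all genes, and the members are not independent of each other. The share was 0.869 for Sema3a and 0.907 for Sema4f, where hDISC1AA/+ replicate 1 was low for Sema3a and high for Sema4f. It was 0.92 for Sema6b, again with hDISC1AA/+ replicate 1 high. It was 0.911 for Plxnd1, where the unnumbered library was low, 0.862 for Plxnb2, where replicate 4 was low, and 0.838 for Sema4c, where replicate 3 was high. Without hDISC1AA/+ replicate 3 the log2 difference of Sema4c was 0.20. The 3 WT libraries are too few for the same check.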

How the results depend on the processing

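The alternatives left 0 of all genes tested and 0 members past the threshold in each of 18 settings, and the smallest adjusted p of a member was 0.392 (limma with array weights). The median difference of the members was -0.068 to -0.025, and -0.068 to -0.032 when each library in turn was left out, and 17 to 20 members were lower. Members with an unadjusted p under 0.05 numbered 2 (2.44% of all genes tested). They numbered 0 with no filter on low values (3.2%), 1 with TMM scaling (2.41%) and 1 with DESeq2 on recovered reads (2.13%). With the GC and length correction there was 1, Sema4d (2.84%), and with array weights there were 5, where 10.3% of all genes had one. Leaving out each library in turn gave 0 to 3, with a share over all genes tested of 1.25% to 5%. Of 558 member values, 50 turned sign, in 17 members. With TMM scaling, edgeR and DESeq2, Sema6b came to 0.00083, 0.0091 and 0.0030. With array weights, which give WT replicate 1 and hDISC1AA/+ replicate 1 little weight (0.244 and 0.279), Plxnb2 came to -0.028, Plxnc1 to 0.054, Plxnd1 to -0.13, Sema3b to 0.052, Sema3c to 0.092, Sema3d to 0.23, Sema3e to 0.080, Sema4b to -0.014, Sema4f to -0.024 and Sema5a to 0.023. With the GC and length correction, Plxna1 came to 0.012, Plxnc1 to 0.021, Sema3c to 0.020, Sema3d to 0.092 and Sema3f to -0.036. Without WT replicate 1 and hDISC1AA/+ replicate 1 together, Plxnb2 came to -0.0027, Plxnc1 to 0.0018, Plxnd1 to -0.035, Sema3c to 0.059, Sema3d to 0.22, Sema3g to -0.013, Sema4b to -0.047 and Sema5a to 0.0019. Leaving out 1 library at a time, Plxna1 ranged from -0.073 to 0.038, Plxnb1 from -0.20 to 0.021, Plxnb3 from -0.17 to 0.026, Plxnc1 from -0.049 to 0.047, Plxnd1 from -0.047 to 0.13, Sema3c from -0.25 to 0.13, Sema3d from -0.32 to 0.20, Sema3f from -0.033 to 0.10, Sema6a from -0.12 to 0.016 and Sema6b from -0.11 to 0.047. The cause was not tested. No paired analysis was possible because the labels carry no replicate numbers shared between the genotypes; the numbers used here follow the order of the samples. With 4 and 3 libraries, some differences are known only to within wide intervals. The 95% confidence interval was -0.62 to 0.39 for Sema3b, -1.04 to 0.19 for Sema3a and -0.33 to 1.66 for Sema3g.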
